A study of Mus musculus with 4 samples.

Results

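Notch signalling was followed through 9 genes, taken by symbol from the 31053 genes of the feature lists: the target genes Hes1, Hey1, Heyl and Nrarp, the ligand Jag1, the receptors Notch1, Notch2 and Notch3, and Rbpj, the DNA-binding partner of the receptors. The genes were chosen with their expression in these data known, Hes1 because it was higher in proximal tubule cells after treatment. Their levels are therefore given as a description, without a test. All 9 symbols were found once each.

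The study profiled single kidney cells of C57BL/6 mice aged 10 weeks after FGF23, a bone-derived hormone whose kidney actions need Klotho as a partner of FGF receptors. Recombinant human FGF23 was given as a single intraperitoneal dose of 10 µg per mouse, and kidneys were taken after 1, 4 or 12 h. The 0 h library is labelled with a dose of 0 µg; the name of its deposited data set refers to saline at 1 h, so a saline injection of those mice is possible but not stated by the label. Each time point is 1 library from digested kidneys pooled from male and female mice, after red cell lysis and removal of annexin V-positive cells. No group therefore has a replicate library, and all intervals below are 95% intervals of counting error only, which do not cover differences between mice or digestions.

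In the Notch pathway, a ligand of the Jagged or Delta-like family on one cell binds a Notch receptor on its neighbour. The receptor is then cut by ADAM and gamma-secretase proteases, and its freed intracellular domain joins RBPJ and a Mastermind protein on DNA. Hes and Hey genes, which encode basic helix-loop-helix repressors, and Nrarp, which encodes a feedback inhibitor, are established targets. In the kidney the pathway is known for its role in nephron segmentation and for balancing principal and intercalated cells in the collecting duct. Hes1 is also known to respond to signals other than Notch, which is the background to asking whether it moved with the other targets here.

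After filtering, 8758 to 10131 cells per library remained, with medians of 8781.5 to 11104.5 UMIs (unique molecular identifiers, 1 per captured transcript) per cell. From 0.773% to 0.992% of the cell barcodes in a library that passed the quality filter also occurred in another library. Cells were grouped by clustering and named from marker genes: 5804 to 6926 proximal tubule-like (PT-like) cells per library, 452 to 621 distal convoluted and connecting tubule-like (DCT/CNT-like) cells, and 7 further classes with at least 50 cells in every library. Of the 88 markers of the named classes, 79 were higher in their own class in every library than in any other named class with its libraries pooled. The 9 that were not were Slc5a12 (PT-like), Trpv5 (DCT/CNT-like), Aqp2 (PC-like), Adgre1, Csf1r and Cd14 (macrophage-like), and Epha7, Aqp1 and Bst1 (descending thin limb-like). Aqp1 and Bst1 were at or near 0 in the descending thin limb-like cells, which numbered 11 to 32 per library and are not described further. Slc12a3 was at 7930 CPM or more in DCT/CNT-like cells and at most 149 CPM in any other class, and Kdr was at 1422 CPM or more in endothelial-like cells and at most 44.9 CPM elsewhere. Slc34a1, the phosphate transporter of the proximal tubule, was at 3208 CPM or more in PT-like cells and reached 1627 CPM in another class. Levels are given as CPM, the UMIs of a gene per 1000000 UMIs of that class in that library. These are counts of transcript 3′ ends, so levels of different genes are not ranked against each other.

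Promoter sequence from RefSeq (GRCm38.p6) was matched for 6 of the 9 genes, and Hes1, Hey1 and Heyl had no entry. The 250 bases before the start site of Nrarp, a target that stayed near 0 in PT-like cells, and of Rbpj, which was found in every class at 0 h, are shown because they represent the output and the transcription factor of the pathway. Capitals mark the RBPJ core motif (TGGGAA, or TTCCCA on the other strand) and the E-box (CACGTG), the site class bound by Hey and related repressors. The Nrarp stretch lies on the plus strand at chr2:25180508-25180757 and the Rbpj stretch on the plus strand at chr5:53590096-53590345.
Nrarp: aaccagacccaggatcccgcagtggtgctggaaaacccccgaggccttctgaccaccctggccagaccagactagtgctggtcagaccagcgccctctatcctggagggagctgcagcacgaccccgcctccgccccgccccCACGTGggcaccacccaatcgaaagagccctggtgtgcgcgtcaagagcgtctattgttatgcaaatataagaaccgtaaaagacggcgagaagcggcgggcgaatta
Rbpj: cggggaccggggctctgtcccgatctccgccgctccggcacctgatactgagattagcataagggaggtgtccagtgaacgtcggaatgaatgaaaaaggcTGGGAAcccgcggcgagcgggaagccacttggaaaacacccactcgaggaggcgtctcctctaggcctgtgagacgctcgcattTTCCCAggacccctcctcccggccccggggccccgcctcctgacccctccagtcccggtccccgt
The Rbpj stretch held 2 matches to the RBPJ core, beginning 149 and 65 bases before the start site, and the Nrarp stretch held none. Another Rbpj start site has its own stretch, chr5:53590236-53590485, which is not shown. It overlaps the stretch shown. Its 1 match, beginning 205 bases before that start, is the same TTCCCA site as the match at 65 bases and not a further one. Among 32851 promoter stretches of the same length, 21.6% held at least 1 match on either strand. The Nrarp stretch held 1 E-box, 108 bases before the start, a motif present in 6.02% of all stretches. The 2 motifs do not overlap in these stretches. The N-box (CACNAG), a site class bound by Hes proteins, was found 2 times in the Nrarp stretch and 0 times in that of Rbpj, and occurred in 36.7% of stretches.

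Before treatment the 9 genes had distinct cell type patterns. In the 0 h library Hes1 was highest in endothelial-like cells (300.3 CPM, 262 to 342), followed by collecting duct principal cell-like (PC-like) cells at 199.8 CPM. Mural-like cells at 120 CPM and intercalated cell-like (IC-like) cells at 111 CPM did not differ beyond their counting intervals. The mural-like class was named from markers of pericytes, smooth muscle and mesangial cells, and its leading gene was Ren1. Thick ascending limb-like (TAL-like) cells had 71.8 CPM and DCT/CNT-like cells 45.5 CPM. PT-like cells had 6.20 CPM (5.68 to 6.75), not separated from neutrophil-like cells at 4.77 CPM or from T/NK-like cells at 3.71 CPM, and the latter 2 rested on 3 UMIs each. Hes1 was therefore near the lowest of all classes in the proximal tubule at baseline.

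The other target genes were high in fewer classes. Hey1 was seen at 22.9 CPM in mural-like cells, from 8 UMIs in 36 cells, and at 6.70 CPM in endothelial-like cells, from 5 UMIs. Heyl was at 100.3 CPM in mural-like and 35.4 CPM in PC-like cells. Nrarp was at 117 CPM in mural-like, 50.6 CPM in PC-like and 46.9 CPM in endothelial-like cells. In 6226 PT-like cells at 0 h, Hey1 had 1 UMI, Heyl 0 and Nrarp 8. A floor of 3 UMIs, chosen to stand in for counts of 0, corresponds there to 0.0349 CPM.

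Of the receptors, Notch1 was highest in endothelial-like cells at 235 CPM and in neutrophil-like cells at 145 CPM, and PT-like cells had 1.04 CPM. Notch2 was highest in neutrophil-like (138 CPM) and B-like cells (100.3 CPM), with 42.2 CPM in PC-like and 10.9 CPM in PT-like cells. Notch3 was found mainly in mural cells, with 367 CPM in mural-like cells, 8.43 CPM in PC-like cells and under 1 CPM in every other named class of that library. The ligand Jag1 was at 275 CPM in mural-like, 159 CPM in IC-like and 42.8 CPM in TAL-like cells, and at 0.850 CPM in PT-like cells. Rbpj was found in all classes, from 10.6 CPM in B-like to 168 CPM in macrophage-like cells, with 12.0 CPM in PT-like cells. Notch1 reads share a strand with Mir6996 and Notch2 reads with the gene models Gm42819 and Gm42820, and were not separated from them.

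**Figure D1:**
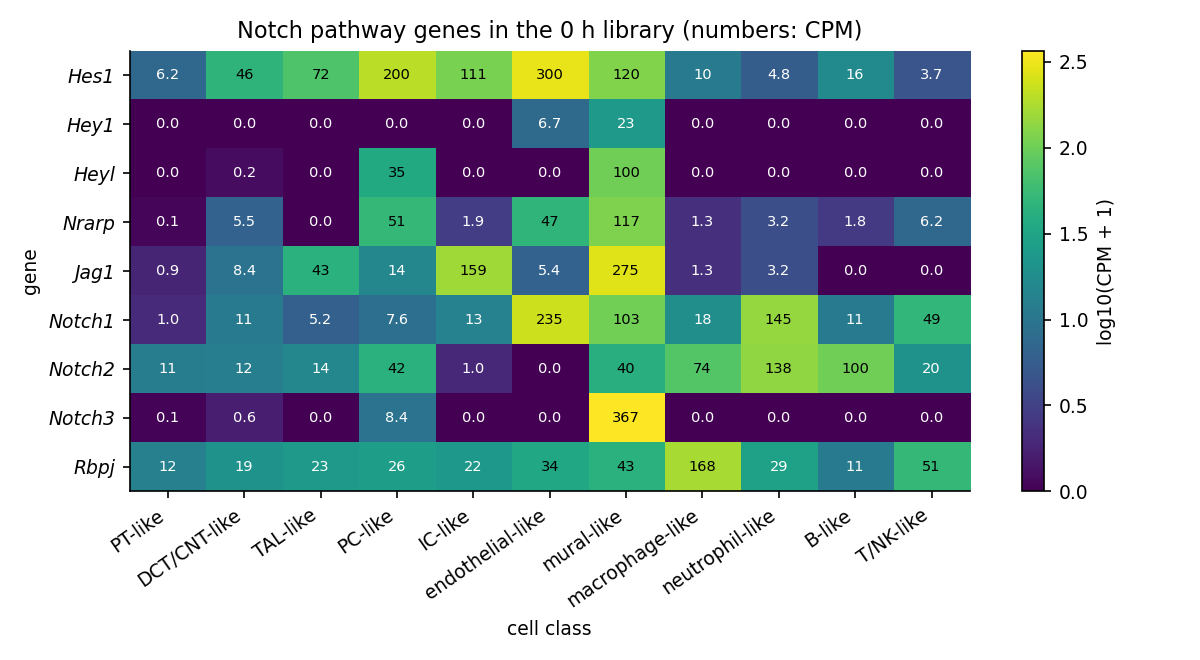
Level of the 9 genes (rows) in 11 cell classes (columns) of the 0 h library, as log10(CPM + 1) in colour and CPM as numbers. Hey1, Heyl, Nrarp, Jag1, Notch1 and Notch3 were near 0 in PT-like cells, whereas Notch2 and Rbpj were at 10.9 and 12.0 CPM; the mural-like column rests on 36 cells.

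Hes1 was several-fold higher in PT-like cells of all treated libraries. Its level was 6.20, 55.1, 33.0 and 15.9 CPM in the 0, 1, 4 and 12 h libraries, from 532, 4844, 3162 and 1225 UMIs. The 1 h library was the highest and each later library was lower, but all 3 lay above the 0 h library and no counting intervals overlapped. Relative to 0 h the log2 ratios were 3.15 (3.02 to 3.29), 2.41 (2.28 to 2.55) and 1.36 (1.21 to 1.51) in time order. From 1 h to 4 h the log2 ratio was -0.74 (-0.81 to -0.68), and from 4 h to 12 h it was -1.06 (-1.15 to -0.96).

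The higher level involved more cells with the transcript. The share of PT-like cells with at least 1 Hes1 UMI was 7.29%, 35.1%, 27.7% and 16.4% in time order. Thinned to 2000 UMIs per cell, which left out 142, 58, 66 and 205 PT-like cells in time order, the shares at 0 and 1 h were 1.25% (0.985 to 1.56) and 9.88% (9.13 to 10.7). At 4 and 12 h the thinned shares were 6.01% (5.46 to 6.59) and 3.04% (2.60 to 3.52). Cells with 3 or more Hes1 UMIs made up 0.209% of the class before treatment and 10.4% at 1 h. T/NK-like cells, which served as the background class, had a Hes1 UMI in 1.15% to 2.20% of cells in the 4 libraries, and in 0.472% to 1.47% after thinning. Their median depth was 2740 to 3162 UMIs against 11389 to 13358.5 UMIs in PT-like cells. The thinned PT-like share of 1.25% at 0 h was not above that background, and the shares at 1 and 4 h were. At 12 h the PT-like share was the higher, but its interval overlapped that of T/NK-like cells in the same library (1.47%, 0.478 to 3.39).

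DCT/CNT-like cells, where Klotho is known to be abundant, had a smaller ratio from a higher baseline. Hes1 was at 45.5, 139.7, 117.7 and 57.4 CPM in time order, from 216, 760, 859 and 341 UMIs. The 1 h and 4 h libraries were well above the 0 h library and the 12 h library lay close to it. The log2 ratios were 1.62 (1.40 to 1.84), 1.37 (1.15 to 1.59) and 0.33 (0.08 to 0.59). The 12 h value did not hold in male-called cells, where the log2 ratio was -0.32, and was 0.78 when cells above 25% mitochondrial UMIs were left out. Between the clusters of this class, cluster 9, led by Slc12a3 and Pvalb, had 36.0, 149, 110 and 51.4 CPM at 0, 1, 4 and 12 h, and cluster 21, led by S100g, Klk1 and Calb1, had 73.4, 120, 132 and 67.8 CPM. Cluster 9 was thus the lower of the pair at 0 h and the higher at 1 h.

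The remaining classes showed small differences. TAL-like cells had 71.8, 81.3, 66.6 and 67.9 CPM in time order, and every interval of the log2 ratio to 0 h held 0. PC-like cells were at 199.8 CPM at 0 h and 254, 239 and 247 CPM afterwards, with log2 ratios of 0.34, 0.26 and 0.31 whose intervals lay above 0, as did those of 3.92%, 11.7% and 5.43% of all genes tested in the class. The clusters of this class differed. Cluster 30, led by Aqp2, had log2 ratios of 0.22, -0.005 and 0.48, with an interval above 0 at 12 h alone. Cluster 45, led by Kcne1, Hsd11b2 and S100g, had 0.71, 1.12 and -0.25, with intervals above 0 at 1 and 4 h. S100g is a DCT/CNT-like marker, and DCT/CNT-like was the second-best class for this cluster. IC-like cells had 111, 138, 118 and 80.8 CPM, with a log2 ratio of -0.46 (-0.82 to -0.09) at 12 h, when 4.95% of all genes had intervals below 0. That ratio was -0.74 (-1.18 to -0.29) in cluster 27, led by Slc26a4, and 0.20 (-0.48 to 0.90) in cluster 38, led by Slc4a1 and Aqp6. Endothelial-like cells had 300.3, 284, 435 and 348 CPM, and the ratio to 0 h was above 0 beyond its counting interval at 4 h (0.53, 0.31 to 0.76), when 6.97% of all genes were. Neutrophil-like cells were at 4.77, 6.72, 46.5 and 82.1 CPM, but the last pair rested on 7 UMIs in 79 cells and 8 UMIs in 58 cells. T/NK-like cells stayed between 3.71 and 8.25 CPM. Their level at 1 h was 6.63 CPM, in the library in which PT-like cells were at 55.1 CPM. Cells of cluster 8, led by Npl and Car3, met too few markers to be named and numbered 323 to 575 per library. Their Hes1 level was 7.12, 139.8, 46.0 and 26.6 CPM, the same order of libraries as in PT-like cells.

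**Figure D2:**
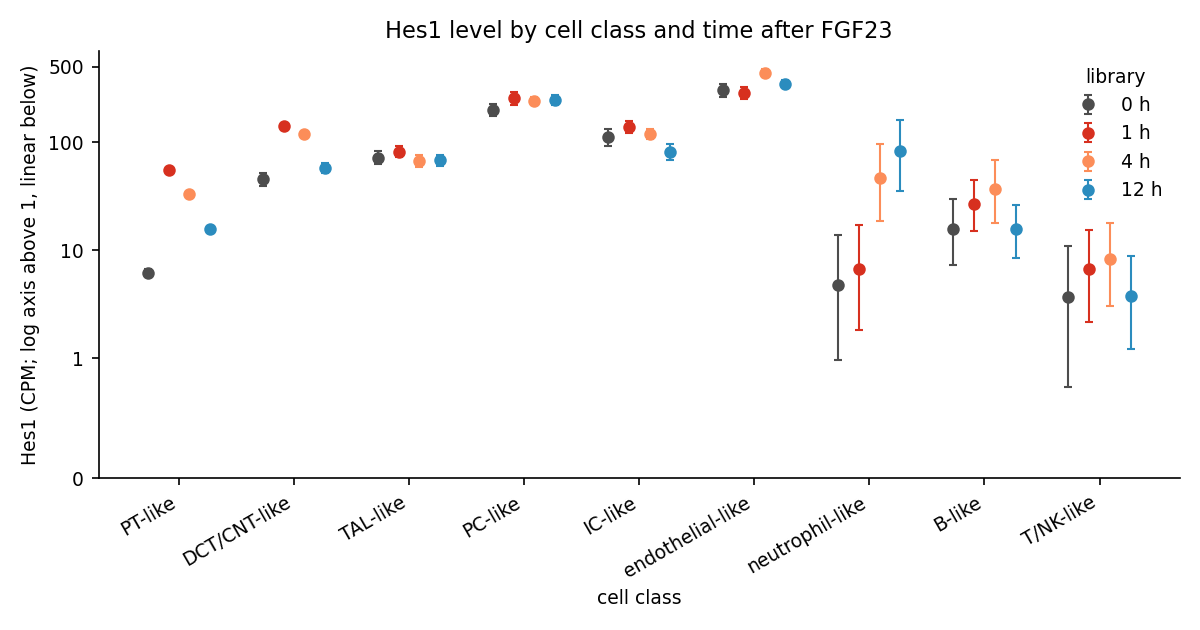
Hes1 level in CPM (vertical axis, logarithmic above 1 and linear below) in 9 cell classes, with 1 point per library (0, 1, 4 and 12 h) and bars for the 95% counting interval. PT-like cells run from 6.20 to 55.1 CPM and DCT/CNT-like cells from 45.5 to 139.7 CPM, whereas TAL-like cells stay between 66.6 and 81.3 CPM.

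The higher Hes1 level was found throughout the proximal tubule, with an order by segment and by sex. All 19 PT-like clusters had a higher Hes1 level at 1 h than at 0 h with an interval above 0, and so did all 19 at 4 h and 16 of 19 at 12 h. The log2 ratio at 1 h ranged from 1.14 to 5.42 among clusters. Cluster 14, led by Snhg11, Car3 and Fosb, reached the highest level at 1 h (166 CPM, from 11.0 CPM at 0 h). Cluster 3, an S3-like cluster led by Ugt2b37 and Slco1a1, had the lowest (11.4 CPM, from 2.47 CPM). Clusters 7, 14 and 25 each had Fosb among their leading genes. They held 691, 354 and 119 cells at 0 h and 80, 88 and 60 at 12 h. Such clusters may not hold the same kind of cell in every library, and the counts of 19 include them. Cells named from early-segment markers (PT-S1/S2-like) had 5.85, 76.6, 36.2 and 17.3 CPM. Cells named from late-segment markers (PT-S3-like) had 6.56, 22.3, 27.4 and 12.6 CPM.

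The segments began at similar levels and differed most at 1 h. In PT-S1/S2-like cells Hes1 was lower at 4 h than at 1 h (log2 ratio -1.08, -1.16 to -1.01), whereas in PT-S3-like cells it was higher (0.30, 0.16 to 0.44). From 63.0% to 72.4% of the PT-like cells of a library could be called female or male from sex-linked transcripts. Female-called cells had 6.29, 102, 40.3 and 20.1 CPM of Hes1 and male-called cells 6.78, 40.5, 31.1 and 14.2 CPM. The sex mix differed by segment, so the values by segment and by sex are not separate comparisons. In PT-S3-like cells at 1 h, 40 Hes1 UMIs were in female-called and 648 in male-called cells. In PT-S1/S2-like cells these were 2128 and 1358. Within each sex PT-S3-like cells were the lower at 1 h, at 46.5 CPM when female-called and 22.9 CPM when male-called. At 1 h, PT-S1/S2-like cells taken alone had 104 CPM when female-called and 63.6 CPM when male-called, a log2 ratio of 0.71 (0.61 to 0.81). The corresponding log2 ratios were -0.30 (-0.71 to 0.10), 0.29 (0.15 to 0.43) and 0.48 (0.26 to 0.70) at 0, 4 and 12 h. PT-S3-like cells had another order, with log2 ratios of female to male of 1.32 (0.58 to 1.98), 1.02 (0.52 to 1.48), -0.33 (-0.87 to 0.17) and -0.20 (-1.04 to 0.53) in time order, from 16 to 40 UMIs in female-called cells. The female-called cells of that segment were thus already higher at 0 h, and at 4 and 12 h the intervals held 0. The share of PT-S1/S2-like cells among PT-like cells was 62.1%, 69.2%, 72.2% and 78.1% in time order. The Hes1 ratio at 1 h was above 0 in each segment and each sex taken alone, from 1.77 in PT-S3-like cells to 4.01 in female-called cells.

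**Figure D3:**
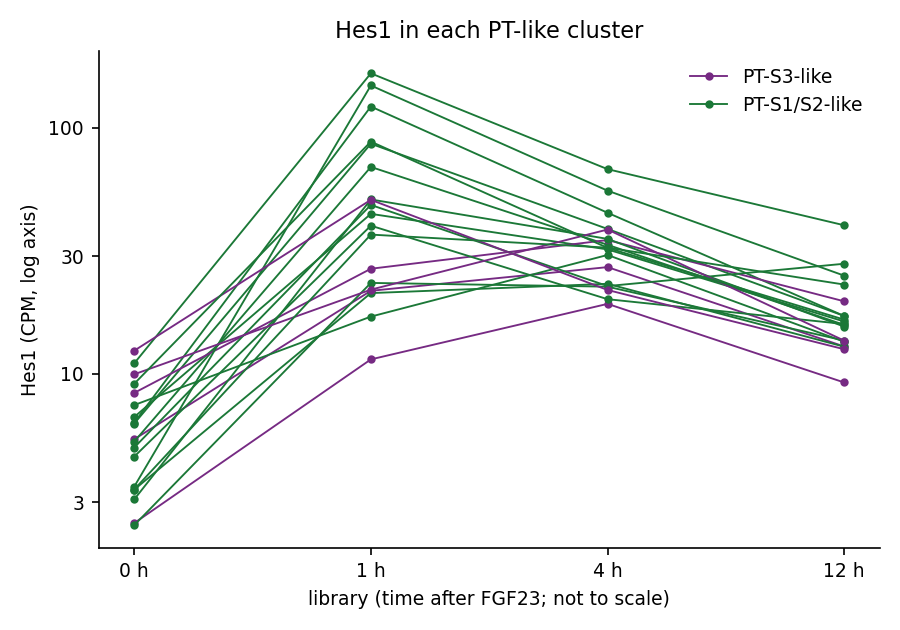
Hes1 level in CPM (logarithmic vertical axis) in each of the 19 PT-like clusters, joined across the 4 libraries, in green for 14 PT-S1/S2-like and purple for 5 PT-S3-like clusters. All clusters lie higher at 1 h than at 0 h, the S1/S2-like ones up to 166 CPM and the S3-like ones up to 50.9 CPM.

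The other Notch targets stayed at or near 0 in PT-like cells while Hes1 was high. Hey1 had 1, 1, 0 and 1 UMIs in the 4 libraries and Nrarp had 8, 11, 15 and 12 UMIs, that is 0.0932 to 0.156 CPM. Neither showed a high library. Heyl had 0, 2, 36 and 1 UMIs in time order, so that the 4 h library alone stood out, at 0.376 CPM (0.263 to 0.520). Against the chosen floor of 3 UMIs at 0 h it was 10.7-fold higher. Its 36 UMIs lay in 36 cells of 11 clusters, 1 per cell, and 16 of these cells were PT-S3-like. The summed level of the 7 mural markers in PT-like cells, where Heyl is otherwise highest, was 1.30, 0.933, 1.83 and 0.492 CPM, with the highest value also at 4 h, and that of the 7 PC markers was 25.3 to 28.9 CPM. Their part in the Heyl value was not tested.

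The other targets were also followed in the classes that expressed them. In DCT/CNT-like cells Nrarp had 5.48, 6.62, 6.44 and 8.41 CPM, from 26 to 50 UMIs, and every interval of the ratio to 0 h held 0. In PC-like cells Nrarp was at 50.6, 80.8, 49.5 and 57.1 CPM, with a log2 ratio of 0.68 (0.16 to 1.19) at 1 h. The Nrarp intervals at 4 and 12 h held 0. Hes1 in this class did not differ beyond its counting interval between 1 h and the later libraries. Its log2 ratios to 1 h were -0.09 (-0.31 to 0.14) at 4 h and -0.04 (-0.28 to 0.21) at 12 h. Heyl in PC-like cells was at 35.4, 26.9, 25.4 and 15.2 CPM, with a log2 ratio of -1.22 (-2.05 to -0.43) at 12 h, when 9.21% of all genes had intervals below 0. In endothelial-like cells Nrarp was at 46.9, 74.0, 20.6 and 52.9 CPM, with a log2 ratio to 0 h of 0.66 (0.04 to 1.30) in the 1 h library and of -1.19 (-1.97 to -0.42) in the 4 h library. In this class 4.9% of all genes had intervals above 0 at 1 h and 5.63% below 0 at 4 h. Nrarp was lowest there in the library in which Hes1 was highest. Hey1 in endothelial-like cells was at 6.70, 9.55, 15.3 and 17.8 CPM, from 5, 8, 20 and 30 UMIs, with a log2 ratio of 1.41 (0.03 to 3.13) at 12 h, when 4.69% of all genes had intervals above 0.

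The receptors, Jag1 and Rbpj differed far less between libraries than Hes1 in PT-like cells. Notch1 had 1.04, 1.47, 1.54 and 1.40 CPM, from 89 to 148 UMIs, with log2 ratios of 0.50 (0.10 to 0.91), 0.57 (0.19 to 0.97) and 0.43 (0.01 to 0.85). These positive ratios were not present in every subset: the 1 h value was -0.32 in PT-S3-like cells and the 4 h value -0.03 in female-called cells. Notch1 also differed by sex within PT-S1/S2-like cells. Female-called cells had 3.31, 3.76, 3.35 and 3.86 CPM of Notch1 in time order and male-called cells 0.678, 1.22, 1.52 and 0.676 CPM, so that the female-called cells were higher in all 4 libraries. The log2 ratios of female to male were 2.29, 1.63, 1.13 and 2.51, all with intervals above 0. In the same cells Jag1 was also higher in female-called cells, with intervals above 0 at 1 h (1.31, 0.43 to 2.25) and 4 h (0.92, 0.23 to 1.65) and intervals that held 0 at 0 and 12 h, where the values were 0.71 and 0.49. The intervals of Notch2 and Rbpj held 0 in every library.

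Notch2 in PT-like cells was at 10.9, 9.12, 10.2 and 7.65 CPM, with log2 ratios of -0.26 (-0.40 to -0.12) at 1 h and -0.51 (-0.66 to -0.36) at 12 h. Rbpj was at 12.0, 12.8, 12.7 and 11.1 CPM, and its log2 ratios of 0.10, 0.08 and -0.11 all had intervals that held 0. The intervals of Rbpj lay within -0.24 to 0.22 on the log2 scale. Jag1 was at 0.850, 0.877, 1.26 and 0.699 CPM, with a log2 ratio of 0.57 (0.14 to 1.01) at 4 h. Notch3 had 6, 0, 3 and 1 UMIs.

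In PT-like cells 1 of the 9 genes, Hes1, was past 2-fold at 1 h, where 5 had the 20 UMIs over both libraries that were required and 0.872% of all 13534 such genes were at least 2-fold higher and 1.69% at least 2-fold lower. At 4 h Hes1 and Heyl were past 2-fold of 7 genes with enough UMIs, beside 3.13% of all genes higher and 2.56% lower. At 12 h it was Hes1 of 6 genes, beside 2.69% higher and 2.51% lower. Counting intervals above 0 were found for 19.5%, 36% and 29.9% of all genes at 1, 4 and 12 h, and below 0 for 15.6%, 24.1% and 24.6%. The small ratios of Notch1 and Notch2 are of a kind seen in many genes between these libraries.

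In DCT/CNT-like cells Notch1 was at 10.5, 9.74, 7.12 and 4.04 CPM, from 50, 53, 52 and 24 UMIs, with a log2 ratio of -1.38 (-2.15 to -0.65) at 12 h. Jag1 was at 8.43, 6.99, 8.22 and 15.6 CPM, with a log2 ratio of 0.89 (0.34 to 1.46) at 12 h. The 12 h library was thus the lowest for the receptor and the highest for the ligand. The make-up of the class also differed: clusters 9 and 21 had 371 and 98 cells at 0 h and 362 and 202 at 12 h. Female-called cells were 67.2% and 48.3% of those called. From 0 to 12 h Notch1 went from 12.7 to 3.90 CPM in female-called and 9.58 to 4.81 CPM in male-called cells. Jag1 went from 8.47 to 16.0 and from 11.8 to 16.6 CPM. The part of the cluster mix was not tested. Notch2 had log2 ratios of -0.60 and -0.61 at 4 and 12 h, with intervals just below 0, and all intervals of Rbpj held 0. Hes1 was the member past 2-fold at 1 and 4 h and Notch1 at 12 h. The shares of all genes in this class were 1.27% higher and 1.84% lower at 1 h, 3.36% and 4.42% at 4 h, and 2.71% and 2.59% at 12 h. Counting intervals above 0 were found for 7.11%, 15.3% and 13.4% of all genes in time order, and below 0 for 9.37%, 18.6% and 15.1%.

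**Figure D4:**
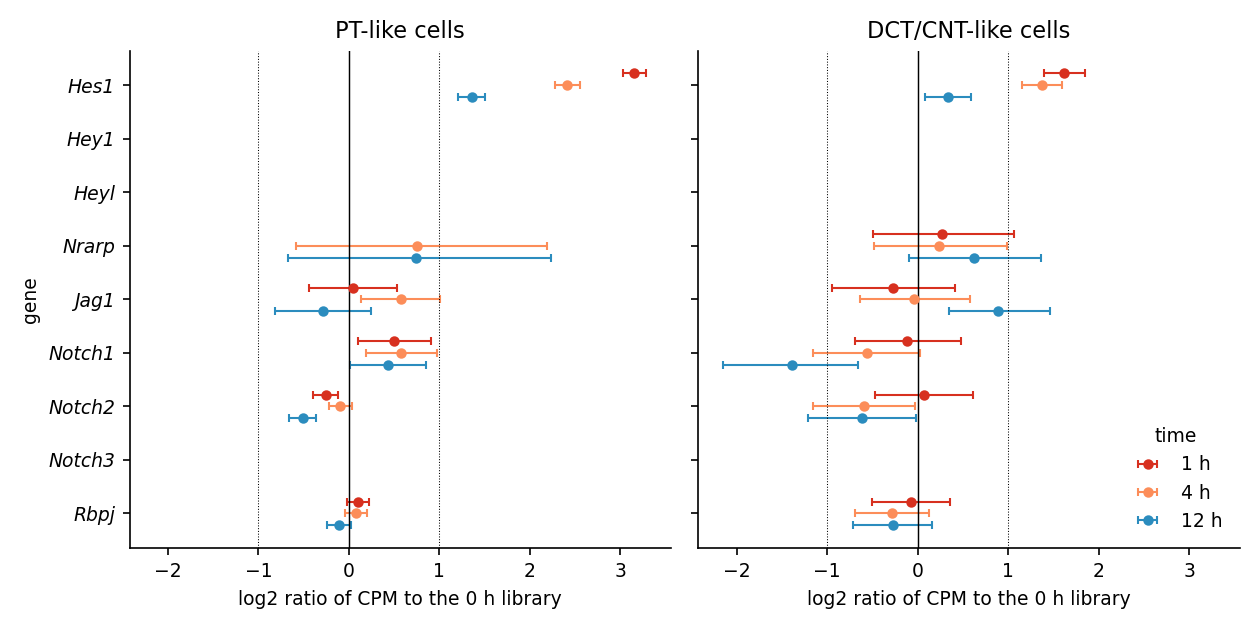
Log2 ratio of CPM to the 0 h library (horizontal axis) at 1, 4 and 12 h for the 9 genes, in PT-like cells (left) and DCT/CNT-like cells (right), with 95% counting intervals and dotted lines at a 2-fold difference. Points are drawn for genes with at least 20 UMIs over both libraries and at least 1 in each; Hes1 stands at 3.15 in PT-like and 1.62 in DCT/CNT-like cells at 1 h, while Rbpj stays within -0.28 to 0.10.

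Jag1 and its receptors were also followed in the remaining classes. In endothelial-like cells Jag1 was at 5.36, 3.58, 21.4 and 8.92 CPM, from 4, 3, 28 and 15 UMIs, and the 4 h level was 3.99-fold that at 0 h, the one interval above the 0 h level. In TAL-like cells Jag1 was at 42.8, 40.7, 33.9 and 29.1 CPM, with a log2 ratio of -0.56 (-0.93 to -0.18) at 12 h, when 6.05% of all genes had intervals below 0. IC-like cells, the tubular class with the most Jag1, had 159, 137, 168 and 128 CPM, with a log2 ratio of -0.32 (-0.61 to -0.02) at 12 h. Notch1 in endothelial-like cells stayed between 235 and 269 CPM, and Notch3 in mural-like cells, of which there were 10 to 47 per library, was at 367, 518, 387 and 485 CPM.

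A wider list of 62 Notch pathway genes, covering ligands, receptors, proteases, nuclear partners, corepressors, sugar-modifying enzymes, ubiquitin and endocytic regulators and targets, was examined for the same pattern. In PT-like cells 47 of the 62 genes had enough UMIs at 1 h, and 1 (Hes1) was at least 2-fold higher and 0 at least 2-fold lower, beside 0.872% and 1.69% of all genes. Their median log2 ratio was 0.04, beside 0.01 over all genes. At 4 h 5 of 49 were higher and 1 was lower, beside 3.13% and 2.56% of all genes. The median was 0.05 against 0.05 over all genes, also with Heyl at 0 h set to the floor of 3 UMIs. At 12 h 5 of 49 were higher and 0 lower, beside 2.69% and 2.51% of all genes, with a median of -0.04 against 0.02. The genes higher at 4 h were Hes1, Heyl, Neurl1b, Neurl3 and Mfng, and Maml2 was lower. At 12 h they were Hes1, Neurl1b, Neurl3, Mfng and Dll4. Of these only Hes1 and Neurl1b had at least 100 UMIs; the others were sparse and are named only to account for the counts. With a minimum of 100 UMIs the counts at 4 and 12 h fell to 2 each, and without a minimum they were 8, 13 and 9 in time order.

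Neurl1b encodes a Neuralized-family ubiquitin ligase, a kind of protein known to act on Notch ligand endocytosis. Its level of 2.67 CPM in the 0 h library compared with 8.13 CPM at 4 h (log2 ratio 1.61, 1.39 to 1.83) and 5.57 CPM at 12 h (1.06, 0.83 to 1.30). Dll1, a Delta-like ligand, fell just inside 2-fold and was picked out after its values were seen: it was at 3.14, 6.26, 4.32 and 2.84 CPM in time order, with log2 ratios of 0.99 (0.78 to 1.21), 0.46 (0.23 to 0.68) and -0.15 (-0.41 to 0.11), the last with an interval that held 0. Dll1 was the ligand with the highest ratio at 1 h of the 3 that had enough UMIs. The 8 nuclear complex genes with enough UMIs had median log2 ratios of 0.07, -0.03 and -0.16, and the 10 protease genes of -0.03, 0.01 and -0.05.

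In DCT/CNT-like cells 42 of the 62 genes had enough UMIs at each time. Hes1 alone was past 2-fold at 1 h. At 4 h Hes1 was higher and Maml1, which had 25 and 18 UMIs, and Rfng were lower, with Rfng, a Fringe enzyme that modifies Notch receptors, going from 13.3 to 6.30 CPM. At 12 h Notch1 was lower and no listed gene was higher. The list medians were 0.06, -0.19 and -0.11, beside -0.03, -0.06 and -0.02 over all genes.

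Genes of 4 other lists give the setting in which Hes1 was high. A list of 18 ERK-responsive genes, the usual transcriptional readout of FGF receptors, had 14 with enough UMIs in PT-like cells. Of these 8 were at least 2-fold higher at 1 h, beside 0.872% of all genes, with a median log2 ratio of 1.17. At 4 h 7 were higher and 1 lower (median 0.74), beside 3.13% and 2.56% of all genes. At 12 h 2 were higher and 3 lower (median 0.24), beside 2.69% and 2.51%. Dusp6, Spry4 and Fos are named after their values were seen. Dusp6, a phosphatase that limits ERK, was at 21.9, 81.8, 61.9 and 32.5 CPM, the same order of libraries as Hes1. Spry4, a Sprouty inhibitor of receptor tyrosine kinase signalling, was at 2.52, 7.71, 7.76 and 3.21 CPM. In DCT/CNT-like cells Dusp6 was at 28.2, 72.6, 134.5 and 63.8 CPM and so was highest at 4 h, when Hes1 was at 117.7 CPM. Fos, which is induced by ERK and also by tissue digestion, had log2 ratios of -1.13 at 4 h and -2.59 at 12 h in PT-like cells; its part in the differences between libraries was not tested.

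Among 9 other Hes and related helix-loop-helix genes, 3 of 8 with enough UMIs were at least 2-fold higher in PT-like cells at 1 h, beside 0.872% of all genes. These were Id1 (15.6 to 87.1 CPM), Id3 (23.8 to 62.0 CPM) and Bhlhe40 (32.2 to 102 CPM). Id1 and Id3 encode inhibitors that sequester helix-loop-helix proteins. Id1 and Id3 belong also to the list of BMP and SMAD responsive genes, of which 2 of 7 were higher at 1 h, 0 at 4 h and 4 at 12 h, beside 0.872%, 3.13% and 2.69% of all genes. Unlike Hes1, both were higher at 12 h than at 4 h, at 62.1 and 100.3 CPM. In DCT/CNT-like cells Id2 went from 119 to 706, 977 and 391 CPM. Of the Groucho-type corepressors that Hes proteins recruit, Tle3 was lower in PT-like cells, at 33.0, 26.3, 10.0 and 17.7 CPM, a log2 ratio of -1.72 (-1.83 to -1.61) at 4 h. Tle1, Tle2 and Tle4, the other 3 with enough UMIs, had log2 ratios of 0.38 (0.14 to 0.63), -0.01 (-0.41 to 0.39) and 0.59 (0.47 to 0.72) at 4 h. These genes were picked out after their values were seen.

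**Figure D5:**
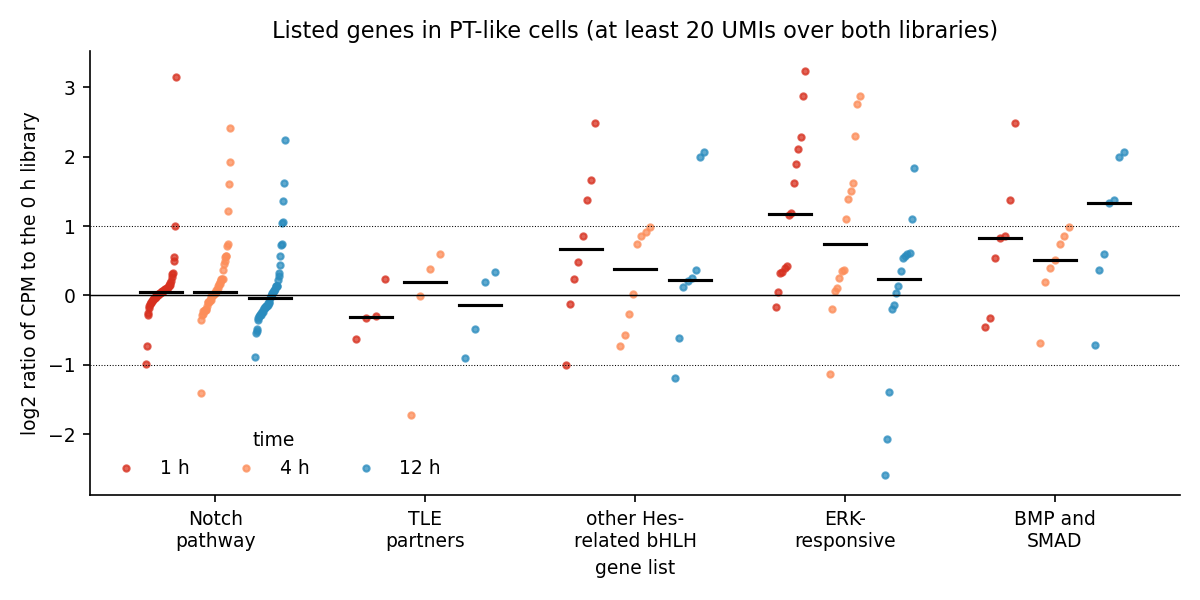
Log2 ratio of CPM to the 0 h library (vertical axis) in PT-like cells for genes of 5 lists, with 1 point per gene with at least 20 UMIs over both libraries, colours for 1, 4 and 12 h, black bars for the medians and dotted lines at a 2-fold difference. In the Notch list at 1 h Hes1 at 3.15 stands alone above 1, while 8 of 14 ERK-responsive genes do; Heyl at 4 h had 0 UMIs at 0 h and is not drawn.

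Likeness to Hes1 was measured as the Pearson correlation of log2(CPM + 1), centred on each class, over 36 pairs of 9 classes and 4 libraries, among 10742 genes with at least 500 UMIs over these cells. The 36 points share libraries, so the values are a description. Every class counted equally, including neutrophil-like cells, whose Hes1 level rested on 3, 4, 7 and 8 UMIs in time order. A value therefore does not describe PT-like cells alone. The 10 most similar genes were Wdr43 and Spryd3 (both 0.79), Rassf1, Spry4 and Kmt2a (all 0.78), Nop58 and Ddrgk1 (both 0.76), Urm1 (0.75), and Tma16 and Ltv1 (both 0.74). With a pseudocount of 5 CPM, 6 of these 10 were again among the 10 highest. Within PT-like cells these 10 genes differed less between 0 and 1 h than Hes1 did. Spryd3 was at 4.47 and 4.42 CPM, Ddrgk1 at 183 and 185 CPM, and Spry4, which differed most, at 2.52 and 7.71 CPM. Id3 had a correlation of 0.70 and Dusp6 of 0.31. Of the other members, the 5 with enough UMIs were at 0.22 (Notch1), 0.01 (Notch2), -0.14 (Rbpj), -0.25 (Jag1) and -0.39 (Nrarp), and none of these 5 was among the 10 genes most similar to Hes1. Hey1, Heyl and Notch3 had 67, 194 and 78 UMIs and were not among the genes compared, so their values of 0.06, 0.05 and -0.20 say little.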

How the data were processed

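The deposited files hold unnormalized UMI counts of each gene in each barcode for 4 libraries, made with 10x Genomics 3′ V3 chemistry per the labels' protocols. Cell Ranger 3.1.0, STAR, Seurat and the mm10 build are named in the submitters' processing notes. Totals were 139675666 to 158838728 UMIs per library.

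Barcodes with at least 300 genes and at most 50% mitochondrial UMIs were kept. Doublets were called from simulated neighbours at 0.8% per 1000 cells, which removed 7.59% to 8.89%. Cells were clustered (Leiden 0.10.2, resolution 1.5, 2000 variable genes, 30 components, 20 neighbours). The Notch and comparison lists and sex-linked genes were held out unless they were markers. Clusters were named where at least 3 markers were on and the second class was at least 0.5 lower on a log2 scale. Clusters with over 50% doublet calls stayed unnamed. An own marker had to be among the 10 leading genes, except in PT-like clusters of enough depth. No other class could have more markers there. Cells with UMIs of Xist and none of 4 Y-linked genes were called female, and the reverse male. For each class in each library, UMIs were added up and divided by the class total (CPM). Exact Poisson, conditional binomial (ratios) and Clopper-Pearson (shares) 95% intervals came from scipy 1.17.1 and were checked on simulated data. They cover counting error only. Ratios needed at least 20 UMIs over both libraries.

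Each group is 1 library, so there was no test and no p-value. The members, lists and rules were chosen with earlier results of these data known. The genes named are the 9 members, other Notch pathway genes past 2-fold with at least 100 UMIs in PT-like or DCT/CNT-like cells, and the 10 genes most like Hes1; genes of the other lists, class markers and sparse Notch pathway genes were named in addition, after their values were seen. Gene positions were read from GENCODE vM21, which holds 99.6% of the gene identifiers. The alternatives were a mitochondrial limit of 25%, doublet calls kept, resolution 1.0, cells weighted equally, totals without mitochondrial genes, single sexes and segments, other UMI minimums, a pseudocount of 5 CPM instead of 1, and thinning to 1000 instead of 2000 UMIs.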

Additional observations from a re-analysis of the deposited data

Results flagged for a closer look

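At 12 h some members differed from 0 h in opposite directions in different cell classes, and these differences between classes were not tested, since each time point is 1 library. Hes1, the helix-loop-helix repressor, had a log2 ratio of 1.36 in PT-like cells and of -0.46 in IC-like cells. Within the IC-like class the ratio was -0.74 in cluster 27, whereas cluster 38 had 0.20 with an interval that held 0. The ligand Jag1 had a log2 ratio of 0.89 in DCT/CNT-like cells and of -0.56 in TAL-like cells. The receptor Notch1 had a log2 ratio of 0.43 in PT-like cells and of -1.38 in DCT/CNT-like cells.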

How the results depend on the processing

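In PT-like cells Hes1 stayed above its 0 h level under every alternative run. Its log2 ratios at 1, 4 and 12 h were 2.58, 2.20 and 1.07 in male-called cells alone, 4.01, 2.68 and 1.68 in female-called cells alone, 3.71, 2.63 and 1.56 in PT-S1/S2-like cells alone, and 1.77, 2.06 and 0.94 in PT-S3-like cells alone. In DCT/CNT-like cells the mitochondrial limit of 25% gave 1.95 at 1 h and 0.78 at 12 h. At 12 h female-called cells of that class alone gave 0.88 and male-called cells alone -0.32. The cause was not tested.

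The PT-like count of Notch pathway genes past 2-fold came to 8, 13 and 9 in time order with no UMI minimum, and 2 at both 4 and 12 h with a minimum of 100 UMIs, since fewer genes were then counted. It was 2 at 1 h and 3 at 12 h with the mitochondrial limit of 25%, and 2 at 1 h with doublet calls kept. Notch1 in PT-like cells gave -0.32 at 1 h in PT-S3-like cells alone and -0.03 at 4 h in female-called cells alone.

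Of 231 ratios of members other than Hes1 under an alternative, 211 stayed within the counting interval of the value reported, 18 lay outside it, and 2, the Notch1 values above, turned the sign of a ratio whose interval had lain above 0. Shares of cells with a Hes1 UMI were lower when thinned to 1000 UMIs, by construction. No paired analysis was possible because each group is 1 library. Depth limits Hey1, Heyl and Notch3 in tubule classes, where most libraries hold 0 to 7 UMIs.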
